A study of Mus musculus with 24 samples.

Results

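Genes of the mitochondrial respiratory chain were followed through positive and negative selection in the thymus of autoimmune-prone NOD and non-autoimmune B10 mice. A probeset was taken where the array's annotation gave it 1 gene symbol starting with Nduf, Sdha, Sdhb, Sdhc, Sdhd, Uqcr, Cox4, Cox5, Cox6, Cox7, Cox8 or Atp5 (Ndufc2 left out) and its mean signal over all 24 arrays was at least 32. Where a gene had several, that of highest mean signal was used. This gave 83 genes of the 12393 with 1 symbol on the array. They were 27 accessory subunits, 6 core subunits and 5 assembly factors of complex I, 4 subunits and 3 assembly factors of complex II, 8 subunits of complex III, 13 subunits or isoforms of complex IV, and 5 F1 and 12 Fo or stalk subunits of complex V. All 83 are nuclear genes, since the subunits encoded by mitochondrial DNA go by other symbols.

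The strains are given as B10 and NOD here, and as B10k (C57BL10 with the H2k haplotype) and NODk (NOD.H2k) in the study. The NOD mice thus carried the same H2k haplotype as B10 in place of their own. All mice were females of 6 to 8 weeks with the 3A9 T cell receptor transgene (TCR), and some also carried insHEL, in which the insulin promoter drives hen egg lysozyme, the antigen of that receptor. PreS cells were CD4+CD8+CD69-1G12- thymocytes that had not yet been selected, taken from TCR mice (n = 3) and TCR insHEL mice (n = 3) of each strain and merged. S+ cells were CD4+CD8lowCD69+1G12+ thymocytes of TCR mice, which are being positively selected (n = 3 in each strain). S- cells had the same surface markers but came from TCR insHEL mice, where they meet their antigen and are negatively selected (n = 3). Each array was 1 independent pool of mRNA from sorted cells, amplified before labelling, so p values measure the spread between such pools. In RNA from pooled cells, fewer cells of a type and less RNA per cell cannot be told apart. PreS marker genes passed the test as lower in S+ and S- cells of B10 (5 of 5 in each) and of NOD (4 of 5 in each), and markers of selected cells as higher in 5 of 5, except for 4 of 5 in NOD S+. Of 6 muscle markers, Acta1, Actn3, Myh1 and Tnnt3 stayed under a signal of 32 on all 24 arrays, while Ckm and Mb did not. The B cell factor Pax5 and the myeloid marker Itgam also stayed under 32. Of 8 myeloid or dendritic cell markers, however, 6 were tested, and the summed signals of the 8 ran from 598 to 1790. Summed signals ran from 43.2 to 337.5 for 3 red cell precursor markers and from 65.1 to 227.5 for 5 epithelial markers. The part of these cells in the results was not tested. The summed signal of 6 B cell markers was 3160 to 8126 in PreS cells of both strains and 1654 to 2955 in S+ and S- cells, and of the 4 that were tested, 2 were lower in B10 S+, B10 S- and NOD S- and 1 in NOD S+ cells. Their part in the results was not tested.

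The respiratory chain passes electrons from NADH (complex I) and succinate (complex II) through ubiquinone, complex III, cytochrome c and complex IV to oxygen, and pumps protons across the inner mitochondrial membrane on the way. ATP synthase (complex V) uses the return of these protons to make ATP. Quiescent and slowly dividing lymphocytes draw much of their ATP from this pathway, and dividing cells need it for biosynthesis too.

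Of the 83 genes, 82 passed the filter on low signals (32 or more in all 3 arrays of at least 1 of 8 conditions) and 78 reached that level in all 8 conditions. Cox6a2, a subunit isoform known from heart and skeletal muscle, did not pass, with signals of 17.8 to 60.8. Cox4i2, Cox7c, Ndufb1 and Ndufs5 passed in some conditions but not in others, so their tests began from a level near background in at least 1 group. Just inside the limit of the rule were Cox6a2 (mean signal 36.1), Ndufb1 (39.9) and Cox4i2 (41.8), and just outside it were Cox6b2 (29.9) and Cox7a1 (18.2). Signals of different probesets were not set against each other, since each probeset has its own affinity. Deviations of the members from their group means tended to go together: over the 3321 pairs of members the median correlation was 0.387 and 74.1% of pairs were above 0. This is a description over arrays that differed in RNA quality and day, whose part in it was not tested. The same value was not computed for other probesets.

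The level of the chain as a whole was described on each array by the median deviation of the 82 genes, in log2 units, from their own means over 24 arrays. In B10 this value lay between -0.17 and 0.32 in PreS, -0.13 and -0.09 in S+, and -0.11 and 0.24 in S- cells. In NOD it lay between -0.32 and 0.95 in PreS, -0.35 and 0.00 in S+, and -0.44 and -0.14 in S- cells. The NOD PreS arrays were thus the most widely spread, with TCR insHEL replicate 1 at 0.95 and TCR replicate 1 at -0.32, and in 5 of the 6 the value was above that of every S+ and S- array of the strain. Among replicates the median SD of the members was 0.25 to 0.29 in the B10 groups but 0.48 in NOD PreS and 0.52 in NOD S+ cells, where it was 0.44 in each for all 12838 probesets.

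RNA quality differed between arrays. The log2 ratio of 3' to 5' signal of the Gapdh and actin control transcripts ran from 0.99 to 4.02 in B10, and was 5.82 and 5.15 in NOD S+ replicates 1 and 2 against 1.59 in replicate 3, and 4.94 in NOD PreS TCR insHEL replicate 1. On NOD S+ replicates 1 and 2 the complex II genes had median deviations of -0.68 and -0.51 and the complex III genes -0.70 and -0.41, while complex IV was at 0.35 and 0.44 and complex V at 0.14 and 0.21. Replicate 3, with the low ratio, stood at 0.08 (II), -0.39 (III), -0.50 (IV) and -0.35 (V), so the complexes fell in a different order within this group. The part of RNA quality in the NOD S+ results was not tested beyond the values given with them.

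**Figure D1:**
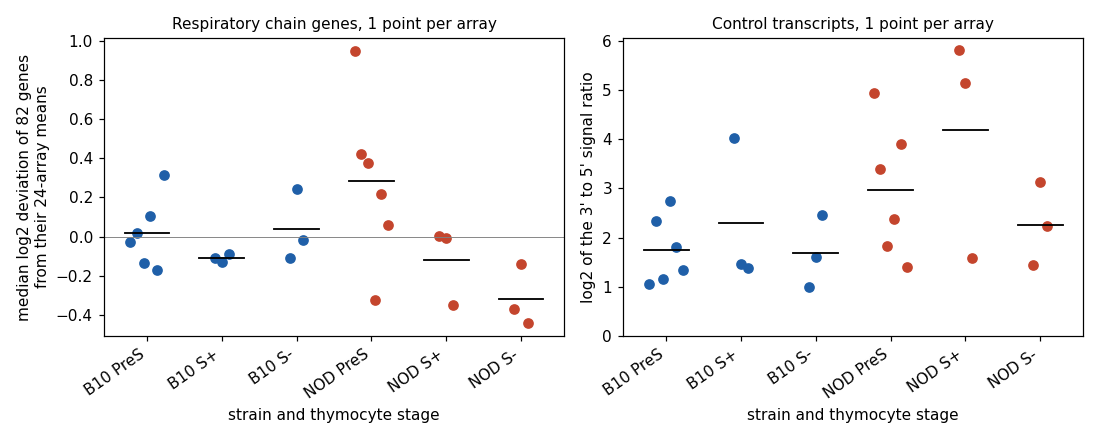
Each point is 1 array. Left, the median log2 deviation of the 82 respiratory chain genes from their own means over 24 arrays; right, the log2 ratio of 3' to 5' signal of the control transcripts; bars are group means (n = 6 for PreS, n = 3 for S+ and S-), with B10 in blue and NOD in red. NOD PreS arrays reach 0.95 and NOD S- arrays lie at -0.44 to -0.14, while 2 NOD S+ arrays have ratios above 5.

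What happened to the chain as B10 thymocytes were selected was asked by setting S+ and S- cells against the same 6 PreS arrays. Few genes passed: 1 of 82 rose and 1 fell in S+ cells, and the members' median log2 difference was -0.17 with 18 of 82 above 0 (all genes, median 0.05 with 54.4% above 0). Across the array 7.37% of probesets passed the test as higher and 9.44% as lower in this comparison, so fewer members passed than probesets at large. In S- cells 1 gene rose and 0 fell (4.42% and 6.8% of all probesets), with a median of 0.03. No member was called as lower in S- by limma. At an unadjusted p under 0.05, 1 member was lower by limma and 1 by the methods' t-test (12.9% of all probesets by the latter). All 3 S+ arrays lay below all 6 PreS arrays for 4 members of 82, against 9.11% of all probesets. Within the 2 days that held both groups the median was -0.12 and -0.19 for S+, and within 1 day -0.05 for S- cells. The S+ count of 2 became 4 without PreS TCR replicate 1 or 2 or without S- replicate 3, and 5 without S+ replicate 3, and the S- count of 1 became 2 without PreS TCR replicate 1 or 2.

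The gene that rose was Sdhaf1, an assembly factor that helps the iron-sulfur subunit of succinate dehydrogenase receive its clusters. It was the 1 member higher in both S+ and S- cells of B10. Its signal in B10 PreS cells was 109 to 225 (median 145), 340, 341 and 453 in S+ cells, and 335, 408 and 341 in S- cells. Neither selected group overlapped with PreS cells. The log2 difference was 1.31 ± 0.24 (SE) in S+ (adjusted p = 0.0017) and 1.24 ± 0.24 in S- cells (adjusted p = 0.0039). In NOD the same probeset gave 100 to 211 in PreS, 154 to 238 in S+ and 237 to 283 in S- cells, and the log2 differences were 0.17 ± 0.27 and 0.50 ± 0.27 (adjusted p = 0.70 and 0.26). The difference between the strains in S+ against PreS was -1.14 ± 0.36 and did not pass the test (adjusted p = 0.23).

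Uqcrfs1, the Rieske iron-sulfur protein of complex III, fell in B10 S+ cells. PreS arrays ranged from 630 to 1159 with a median of 909, and S+ arrays were at 506, 375 and 638, so that the highest S+ array just overlapped with the lowest PreS array. The log2 difference was -0.86 ± 0.22 (adjusted p = 0.015). In S- cells the 3 signals of 583, 548 and 571 lay below all PreS arrays, with a log2 difference of -0.66 ± 0.22 that did not pass (adjusted p = 0.074). Without B10 S+ replicate 2 the S+ difference was -0.66 (adjusted p = 0.10).

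NOD thymocytes gave more calls. In S+ cells 15 of 82 members fell and 0 rose against PreS cells, with a median log2 difference of -0.44 and 17 of 82 above 0 (all genes, median 0.05 with 52.7% above 0). That is 18.3% of members lower, where 8.66% of all probesets passed as lower and 6.13% as higher. No member rose at an unadjusted p under 0.05 either, by limma or by the methods' t-test (13.2% of all probesets by the latter). In S- cells 5 of 82 fell and 0 rose (6.1% of members lower, against 5.68% of all probesets lower and 5.51% higher), with 0 rising at an unadjusted p under 0.05 by both tests. The median in S- cells was lower than in S+, at -0.65, and 2 of 82 genes were above 0 (all genes, 0.04 and 52.6%). All S+ arrays lay below all PreS arrays for 12 of 82 members (14.6%, against 6.43% of all probesets), and all S- arrays for 14 of 82 (17.1%, against 7.69%).

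Myeloid or dendritic cell markers moved with the NOD S+ group: 2 of the 6 tested rose, and the summed signal of 8 was 1333 to 1790 against 735 to 1594 in PreS cells, with Itgam under 32 throughout. Their part in the result was not tested. The NOD S+ count rested on few arrays. Without NOD S+ replicate 1 it was 2, without replicate 2 it was 1 and without replicate 3 it was 23. Leaving out the 3 arrays of highest 3' to 5' ratio left 1 NOD S+ array, and the median was then -0.50. Without NOD PreS TCR replicate 1 the NOD S+ count was 25. It was 9 each without PreS TCR replicate 3, PreS TCR insHEL replicate 2 or 3, or S- replicate 3. The NOD S- count was 0 without S- replicate 1 or replicate 3, 3 without PreS TCR insHEL replicate 3, 9 without S+ replicate 3 and 19 without PreS TCR replicate 1. With hybridization day as a block both counts were 0. Few days held NOD arrays of more than 1 group, so this block left little to estimate a difference from. On the single day that held NOD PreS and S+ arrays (1 array each) the median difference of the members was -0.32, with 52 of 82 below 0, and no day held NOD PreS and S- arrays.

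By complex, the 15 genes that fell in NOD S+ were 8 of 38 of complex I, 0 of 7 of complex II, 3 of 8 of complex III, 0 of 12 of complex IV and 4 of 17 of complex V. Ndufa4 is counted by its symbol with complex I here, and counted with complex IV it would give 7 of 37 in complex I and 1 of 13 in complex IV. The medians were -0.52, -0.47, -0.97, -0.31 and -0.31 in the order of the complexes. In NOD S- cells they were -0.75, -0.17, -0.67, -0.61 and -0.51, with 2, 0, 1, 1 and 1 genes lower. For complexes II and IV, the counts at an unadjusted p under 0.05 in NOD S+ were 2 and 2 genes, and in NOD S- they were 0 and 5. All these counts are of 1 probeset per gene. Calls of the further probesets, which 42 members had, were not split by complex. In B10 S+ cells the medians were -0.27, -0.01, -0.08, -0.02 and -0.19, and in B10 S- cells -0.07, 0.07, 0.13, 0.14 and 0.06.

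**Figure D2:**
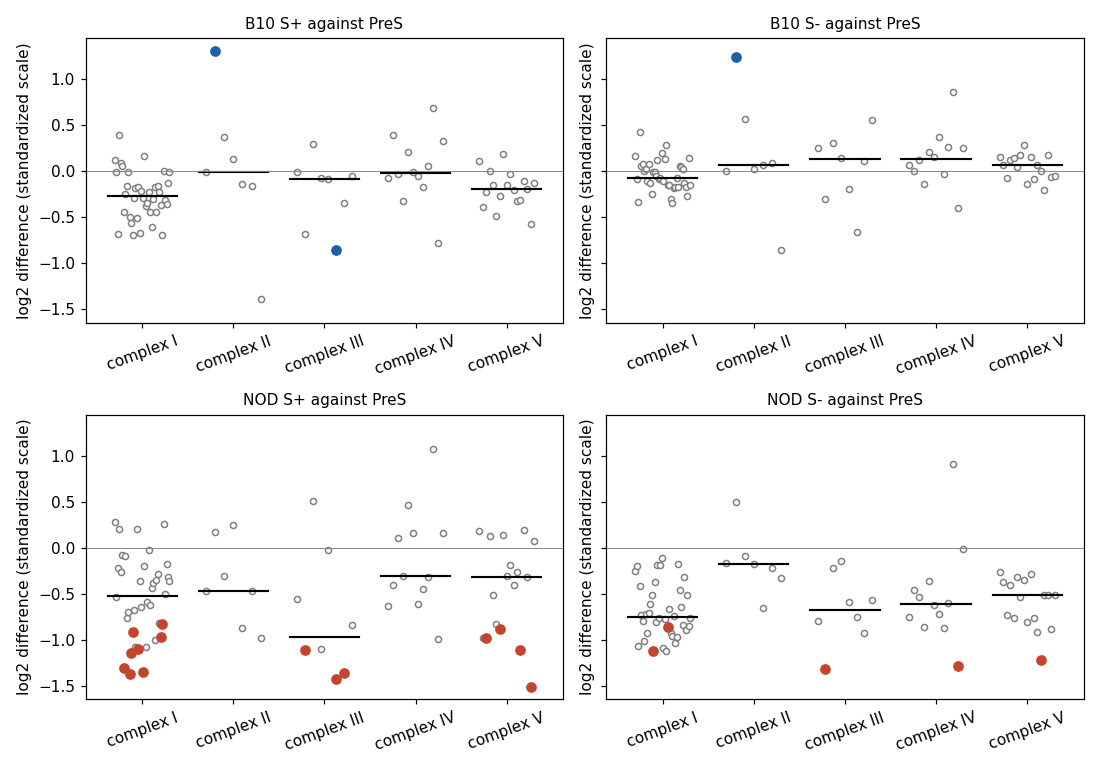
Each point is 1 gene, drawn by complex (x axis) at its log2 difference from PreS cells on the standardized scale (y axis); filled points passed the test at an adjusted p under 0.05 and bars are medians. In B10 2 points are filled in S+ and 1 in S- cells, while in NOD 15 and 5 are filled and all of them lie below 0.

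Among complex I genes called in NOD S+ without overlap of the arrays, Ndufa8 and Ndufa4 had the lowest values. Ndufa8, an accessory subunit on the intermembrane-space side, gave 627 to 1098 (median 691) in NOD PreS and 228, 228 and 620 in S+ cells, a log2 difference of -1.37 ± 0.33 (adjusted p = 0.015). The 2 low arrays were the 2 of high 3' to 5' ratio. Ndufa4, named as a complex I subunit but now counted with complex IV, gave 852 to 1844 (median 1211) in PreS and 592, 327 and 727 in S+ cells. All 3 S+ arrays lay below PreS, by -1.30 ± 0.31 (adjusted p = 0.016), and its S- arrays at 771, 639 and 581 did too, with a difference of -1.01 ± 0.31 (adjusted p = 0.056). Ndufaf5, an assembly factor that hydroxylates a core subunit of complex I, gave 132 to 229 (median 145) in PreS against 64.7, 85.0 and 99.5 in S+ cells. Its difference was -1.10 ± 0.25 (adjusted p = 0.011), with every S+ array under every PreS array.

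Ndufab1, the mitochondrial acyl carrier protein that also serves as a complex I subunit, passed in both selected groups of NOD mice. PreS arrays ran from 269 to 538 (median 430), S+ arrays were at 236, 266 and 198, and S- arrays at 167, 242 and 220. The log2 differences were -0.91 ± 0.26 in S+ (adjusted p = 0.036) and -1.12 ± 0.26 in S- cells (adjusted p = 0.016), and neither group overlapped with PreS. A further Ndufab1 probeset gave -0.44 ± 0.26 and -0.63 ± 0.26, which did not pass (adjusted p = 0.27 and 0.14). In B10 S+ cells Ndufab1 also lay below all PreS arrays, at 266, 237 and 254 against 340 to 540, with a difference of -0.69 ± 0.23 (adjusted p = 0.056). Ndufb3, a small membrane-arm subunit, fell in NOD S- cells: 590, 785 and 782 against 915 to 1462 (median 1229) in PreS, a difference of -0.86 ± 0.23 (adjusted p = 0.027). The others of complex I called in NOD S+ were Ndufb10, Ndufa9, Ndufs4 and Ndufs5, at -1.35 to -0.83. Both further Ndufs4 probesets gave smaller values that did not pass, -0.33 ± 0.42 and -0.14 ± 0.28 (adjusted p = 0.63 and 0.77).

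The 4 subunits of succinate dehydrogenase, the enzyme shared by the chain and the citric acid cycle, passed no test of S+ or S- against PreS in either strain by limma (at an unadjusted p under 0.05, 1 was lower in B10 S+ and 2 in NOD S+ cells, and 0 in both S- groups). The B10 signals of Sdhb, the iron-sulfur subunit, overlapped between all 3 groups, and its log2 differences in NOD were -0.87 ± 0.32 in S+ and -0.65 ± 0.32 in S- cells (adjusted p = 0.080 and 0.21). Sdhc, a membrane anchor, differed by -0.47 ± 0.20 in NOD S+ cells (adjusted p = 0.14). Sdhd, the other membrane anchor, varied most: its NOD S+ arrays gave 169.8, 100.6 and 448 and its B10 S+ arrays 102, 391 and 484. The 4 lowest Sdhd signals were on the 4 arrays of highest 3' to 5' ratio, which held for 1 of 82 members and for 1.52% of all probesets. Its difference of -1.39 ± 0.49 in B10 S+ cells did not pass (adjusted p = 0.072).

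Complex III had 3 of its 8 genes lower in NOD S+ cells. Uqcrh, the hinge protein that binds cytochrome c1, gave 496 to 1141 (median 708) in PreS and 292, 187 and 454 in S+ cells, a log2 difference of -1.36 ± 0.32 (adjusted p = 0.014). Uqcr11, a small subunit, gave 553 to 1735 (median 917) in PreS, 452, 486 and 434 in S+, and 362, 518 and 377 in S- cells. It passed in both, by -1.11 ± 0.33 in S+ (adjusted p = 0.042) and -1.32 ± 0.33 in S- cells (adjusted p = 0.022), with no overlap in either. Its B10 S+ arrays, at 449, 517 and 503, also lay below the PreS range of 545 to 1198, with a difference of -0.68 ± 0.22 that missed the threshold (adjusted p = 0.053). Uqcrfs1 fell in NOD S+ cells by -1.43 ± 0.35 (adjusted p = 0.016), with arrays at 216, 229 and 667 against 594 to 1137, so that the array of low ratio overlapped with PreS.

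**Figure D3:**
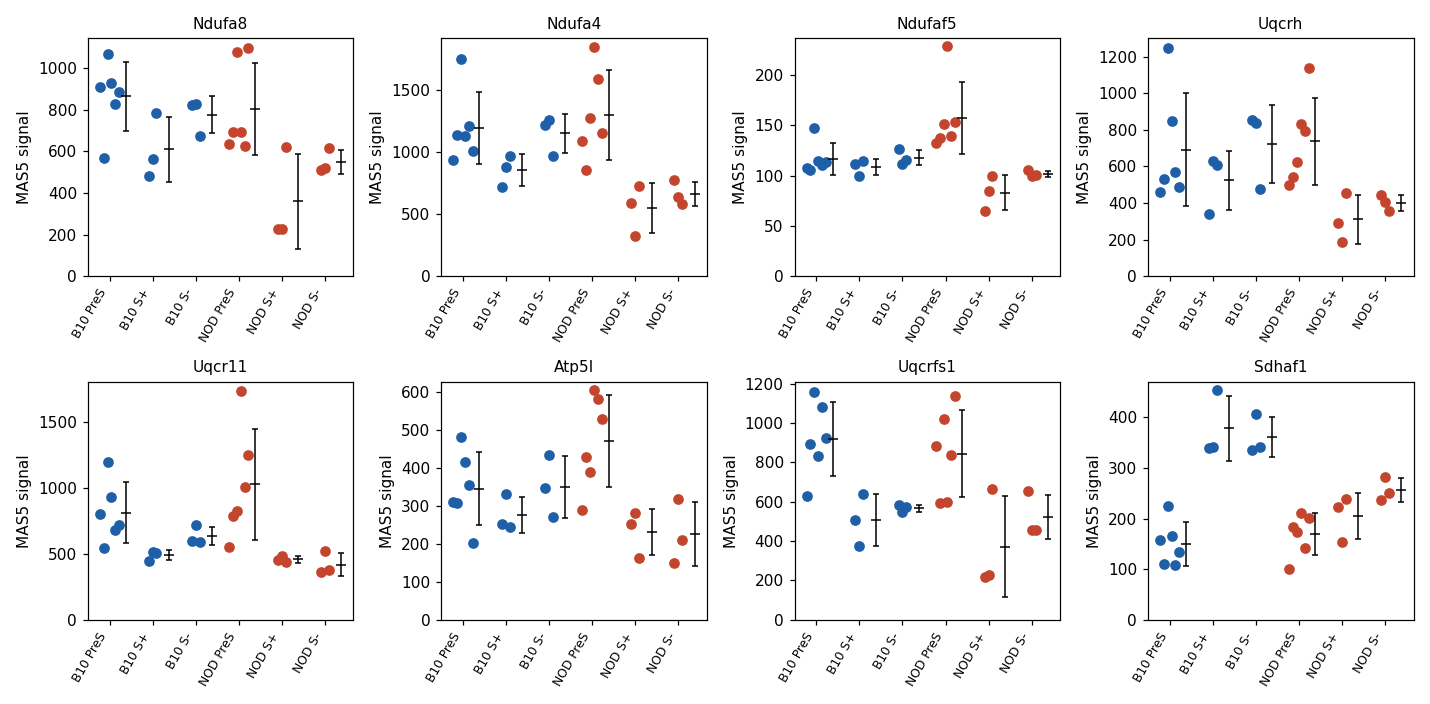
MAS5 signal (linear y axis from 0) of 8 respiratory chain genes on every array, by strain and stage, with the group mean and SD beside the points (n = 6 for PreS, n = 3 for S+ and S-). For Ndufa8 and Uqcrfs1, 2 of 3 NOD S+ points lie between 216 and 229 and the third overlaps with or nears the PreS points; Sdhaf1 is higher in B10 S+ and S- cells than in all B10 PreS arrays.

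In complex IV, the isoforms found in most tissues (Cox4i1, Cox6a1, Cox6b1, Cox7a2) gave signals of 1741 to 8980 over all arrays, and none passed a test between stages. The log2 differences of these 4 genes lay between -0.17 and 0.21 in B10 S+ and between -0.63 and 0.47 in NOD S+ cells, where Cox6a1 gave 6873 and 7797 on the arrays of high ratio and 3388 on the third. In NOD S- cells they were -0.75 (Cox4i1), -0.36 (Cox6a1), -0.62 (Cox6b1) and -0.87 (Cox7a2), and the S- arrays of Cox4i1 and Cox7a2 lay below all PreS arrays without passing (adjusted p = 0.12 and 0.14). Cox7a2l, a factor in the assembly of supercomplexes, differed by -0.60 ± 0.34 there (adjusted p = 0.29). Cox4i2, the isoform known from lung and from low oxygen, stayed at 28.0 to 65.2 on all arrays, and Cox8c, known from testis, at 77.6 to 191, and neither passed a test.

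Cox8a, the subunit VIII isoform of most tissues, was the member with a Cox symbol that fell. Its NOD PreS arrays gave 807 to 1192 (median 1021) and its S- arrays 333, 583 and 435, a log2 difference of -1.29 ± 0.32 without overlap (adjusted p = 0.021). The S+ arrays, at 895, 326 and 453, overlapped with PreS, and the difference of -0.99 ± 0.32 missed the threshold (adjusted p = 0.056). A further Cox8a probeset gave 0.04 ± 0.19 in S- cells (adjusted p = 0.93), so the probesets of this gene disagreed.

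In ATP synthase, Atp5l (subunit g of the membrane part) passed in both selected groups of NOD mice. PreS arrays gave 290 to 604 (median 478), S+ arrays 251, 280 and 163, and S- arrays 150, 318 and 211. The differences were -1.10 ± 0.33 in S+ (adjusted p = 0.040) and -1.22 ± 0.33 in S- cells (adjusted p = 0.031), with 1 S- array inside the PreS range. Of the 3 genes that encode the identical c subunit of the rotor, Atp5g2 fell in NOD S+ cells by -0.88 ± 0.26 (adjusted p = 0.036), from 487 to 890 in PreS to 314, 421 and 453. Atp5g1 differed by -0.83 ± 0.27 (adjusted p = 0.054) and Atp5g3 by 0.15 ± 0.31 (adjusted p = 0.78) in that comparison. Atp5b, the catalytic beta subunit, gave 441, 717 and 1987 on the 3 NOD S+ arrays, the lower pair being those of high ratio, and its difference of -0.98 ± 0.37 did not pass (adjusted p = 0.095). Atp5o, in the stalk, gave the lowest value of the 15, -1.51 ± 0.34 (adjusted p = 0.011), with overlapping arrays, while a further probeset gave -1.02 ± 0.40 and did not pass (adjusted p = 0.10). It and Atp5c1 were singled out after their values were seen. Atp5c1, the gamma subunit, fell by 0.98 on the log2 scale, but a further probeset gave 0.92 ± 0.41 (adjusted p = 0.15).

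The start regions of some members hold sequences that NRF1 and GABP (also called NRF2), known activators of nuclear respiratory genes, can bind. These were members that fell in NOD S+ cells, such as Uqcr11 and Ndufa8, and members that did not pass there, such as Atp5k and Sdhb. Other members that fell, such as Ndufa4, Ndufa9 and Uqcrfs1, had no match to either. Whether the matches go with the fall was not tested. RefSeq promoter windows of 300 bases (250 before and 50 after a gene's start, GRCm38.p6) matched 69 of the 83 genes. Each motif was searched on both strands. The NRF1 letters GCGCATGC were in 15.9% of these genes (11 of 69) and in 3.05% of all 27025 genes with a window, and the YY1 letters AAGATGGC in 9 of 69 and in 3.19%. The GABP letters CCGGAAGT were in 7.25% (5 of 69) and 4.31%, the SP1 letters GGGCGG in 47.8% and 38.2%, the TATA box letters TATAAA in 8.7% and 15.7%, and the CCAAT box in 37.7% and 41.1%. These are matches of letters and not measured binding, and no test was made of them. A stretch from 90 bases before to 10 bases past the start is shown for 4 of the genes that fell, chosen because a match to NRF1 or GABP lies in it. Capitals mark these matches, and all 4 genes are on the minus strand, read 5' to 3'. A pair of overlapping NRF1 matches gives the 10 capitals of Atp5g2.
Uqcr11, chr10:80406812-80406911: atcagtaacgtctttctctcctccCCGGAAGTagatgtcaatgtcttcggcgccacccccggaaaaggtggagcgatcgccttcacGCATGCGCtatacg
Uqcrh, chr4:116075061-116075160: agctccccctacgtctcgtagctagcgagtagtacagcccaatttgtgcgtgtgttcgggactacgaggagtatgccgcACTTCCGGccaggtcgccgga
Ndufa8, chr2:36049329-36049428: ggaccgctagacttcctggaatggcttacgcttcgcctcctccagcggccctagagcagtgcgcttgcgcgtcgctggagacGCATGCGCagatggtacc
Atp5g2, chr15:102671038-102671137: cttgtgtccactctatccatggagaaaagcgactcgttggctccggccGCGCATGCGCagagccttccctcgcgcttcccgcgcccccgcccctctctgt

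Whether meeting the antigen changed the chain was asked by setting S- against S+ cells. No member passed in B10, where 1.67% of all probesets did. At an unadjusted p under 0.05, 5 members were higher and 0 lower by limma. The methods' t-test gave 6 and 0, against 5.69% and 5.68% of all probesets. The median difference was 0.19, with 68 of 82 above 0 (all genes, -0.02 and 47.4%). In NOD no member passed and 0.0% of all probesets passed, with 1 member higher and 1 lower at an unadjusted p under 0.05 (0 and 2 by the methods' t-test, against 2.17% and 1.87% of all probesets). There the median was -0.20, with 28 of 82 above 0. Without NOD S+ replicate 3 the NOD count was 1. Within the days that held both groups the medians were 0.06 and 0.14 in B10 and -0.09 and -0.08 in NOD.

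Set against B10 at the same stage, NOD cells had 1 member lower and 0 higher in PreS (2.48% of all probesets lower, 1.65% higher), 2 lower and 0 higher in S+ (1.86% and 1.84%), and 1 lower and 0 higher in S- cells (1.15% and 1.17%). At an unadjusted p under 0.05 limma gave 11, 0 and 0 members higher and 2, 13 and 12 lower in PreS, S+ and S- cells, and the methods' t-test 11, 0 and 0 higher and 2, 14 and 12 lower. The medians were 0.30 in PreS with 65 of 82 above 0, -0.03 in S+ with 40 of 82, and -0.36 in S- with 3 of 82 above 0 (all genes, -0.01 to 0.01). All 3 NOD S- arrays lay below all B10 S- arrays for 25 of 82 members (30.5%, against 12.6% of all probesets), and all NOD PreS arrays lay above the B10 ones for 0 of 82 (1.08%). The PreS arrays of NOD had higher 3' to 5' ratios than those of B10 (mean 2.98 ± 1.34 against 1.74 ± 0.68, SD, n = 6), and the array of highest ratio had the highest chain level. The PreS median was 0.15 with the ratio as a covariate, 0.16 without that array and 0.11 with quantile normalization. Within the 3 days that held PreS arrays of both strains the medians were 0.21, 0.37 and 0.33, and within the 1 day with S- arrays of both, -0.39. No day held S+ arrays of both strains. The PreS count became 2 without NOD S+ replicate 3, and the S- count 3 without NOD PreS TCR insHEL replicate 1 and 2 without NOD PreS TCR replicate 1 or B10 S- replicate 3. In S- cells Ndufab1 gave a difference of -1.02 ± 0.28 without overlap of the arrays and just missed the threshold (adjusted p = 0.057).

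The gene that passed at all 3 stages was Ndufs5, a complex I accessory subunit of the intermembrane-space side, on chromosome 4. Its signal was 183 to 457 (median 317) in B10 PreS and 33.1 to 54.5 (median 46.2) in NOD PreS cells. In S+ cells it was 127, 309 and 210 in B10 against 33.8, 22.3 and 37.6 in NOD, and in S- cells 339, 416 and 265 against 38.2, 31.4 and 20.5. No B10 array overlapped with any NOD array. The log2 differences were -2.73 ± 0.24 in PreS (adjusted p = 8.4e-08), -2.87 ± 0.34 in S+ (adjusted p = 1.1e-05) and -3.58 ± 0.34 in S- cells (adjusted p = 3.4e-07). In NOD, 1 of 3 S+ arrays and 2 of 3 S- arrays were under the filter level of 32, so the sizes there rest on signals near background. With such signals raised to 32, B10 was at least 5.87-fold higher in S+ and at least 9.85-fold higher in S- cells, and 7.11-fold higher in PreS cells, where no NOD array was under 32. Within the days that held both strains the values were -2.92, -2.02 and -2.51 in PreS and -3.63 in S- cells.

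A probeset that the annotation gives to Ndufs5 together with the pseudogene Ndufs5-ps, and that the rule therefore left out, did not show this gap. It gave 234 to 636 (median 434) in B10 PreS and 319 to 512 (median 429) in NOD PreS cells, a log2 difference of 0.05 ± 0.22 (adjusted p = 0.92). In S+ cells it was 240, 317 and 331 in B10 against 167, 154 and 239 in NOD (-0.71 ± 0.31, adjusted p = 0.21), and in S- cells 391, 491 and 347 against 205, 258 and 149 (-1.07 ± 0.31, adjusted p = 0.070). Within NOD the shared probeset fell from PreS by -1.31 ± 0.26 in S+ and -1.20 ± 0.26 in S- cells (adjusted p = 0.0057 and 0.0096). The Ndufs5 probeset itself is among the 15 calls of NOD S+ against PreS cells (-0.83 ± 0.26, adjusted p = 0.047), but its NOD signals lay near the filter level of 32 in both groups, and without NOD S+ replicate 2 the value was -0.59 (adjusted p = 0.24). A difference in transcript level and a difference in the sequence under a probeset cannot be told apart between strains, since the array was designed on a reference sequence.

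**Figure D4:**
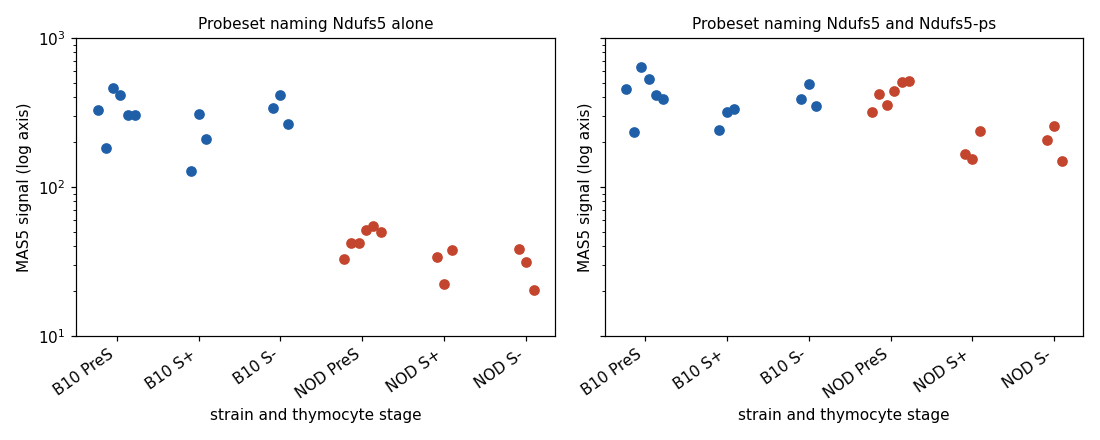
MAS5 signal (log axis) on every array for the probeset naming Ndufs5 alone (left) and the probeset naming Ndufs5 and Ndufs5-ps (right), by strain and stage. On the left all 12 NOD points (20.5 to 54.5) lie under all 12 B10 points; on the right the PreS points of the strains overlap and the NOD S+ and S- points are lower.

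Sdha, the flavoprotein of succinate dehydrogenase, was the other member that passed between strains, in S+ cells. It gave 1084, 1495 and 1546 in B10 S+ and 542, 511 and 1181 in NOD S+ cells, a log2 difference of -0.95 ± 0.24 (adjusted p = 0.029), with the NOD array of low ratio inside the B10 range. The differences in PreS and S- cells were -0.50 ± 0.17 and -0.67 ± 0.24, in both cases without overlap of the arrays but past no threshold (adjusted p = 0.12 and 0.175). A further Sdha probeset gave 704 to 1048 in B10 S+ and 1005 to 1085 in NOD S+ cells, a difference of 0.32 ± 0.29 (adjusted p = 0.57), so the probesets of this gene disagreed too. Without NOD S+ replicate 1 or 2 the S+ difference was -0.80 or -0.75 (adjusted p = 0.19 in each). Without B10 S+ replicate 2 or 3 it was -0.88 or -0.87 (0.13 in each). Without the 3 arrays of highest ratio, which left 1 NOD S+ array, it was -0.23. Other genes also separated the strains in S+ cells: of 6 myeloid or dendritic cell markers, all were above 0 in NOD with a median of 1.27 and 1 passed (5 at an unadjusted p under 0.05), with summed signals of 1333 to 1790 in NOD against 598 to 891 in B10, and Itgam was under 32 in both. Of 23 G2/M genes, 23 were above 0 and 11 passed, with a median of 1.35. Their part in the result was not tested. Of all members, 20 passed between the strains in S+ cells without NOD S+ replicate 3, 1 without NOD S+ replicate 1 or 2 or B10 S+ replicate 2 or 3, and 3 without B10 S+ replicate 1. 

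Whether selection moved the chain differently in the strains was tested by the difference of the differences. No member passed for S+ against PreS (0.358% of all probesets), for S- against PreS (0.101%) or for S- against S+ (0.148%). At an unadjusted p under 0.05 limma gave 11, 20 and 1 members, all with a lower value in NOD. The methods' t-test gave 10, 18 and 2, also lower, against 4.41%, 5.22% and 4.01% of all probesets lower. The medians were -0.26, -0.67 and -0.44, and 80 of 82 genes were below 0 for S- against PreS (all genes, 0.03 with 52.1% above 0). A difference between the strains in how these members changed on selection was therefore not shown gene by gene. The S- against PreS value also holds the high NOD PreS arrays, and without TCR insHEL replicate 1 of that group the median was -0.51. Without NOD S+ replicate 3 the count for S+ against PreS was 3.

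Other genes of mitochondrial energy metabolism were counted from lists written from general knowledge. Of all probesets, 9.44% passed as lower in B10 S+, 6.8% in B10 S-, 8.66% in NOD S+ and 5.68% in NOD S- cells. Of 15 genes of the citric acid cycle and pyruvate dehydrogenase, 2 fell in B10 S+, 1 in B10 S-, 3 in NOD S+ and 2 in NOD S- cells, and 0 rose. Idh3a, a subunit of isocitrate dehydrogenase, fell by -1.27 ± 0.27 in B10 S+, -1.41 ± 0.26 in NOD S+ and -1.38 ± 0.26 in NOD S- cells, and Fh1, fumarase, by -0.96, -0.69, -0.95 and -1.01 in the 4 comparisons. Of 13 genes of cytochrome c, ubiquinone synthesis and electron transfer from fatty acids, 2, 2, 4 and 1 fell in the same order, and Coq7, a hydroxylase of ubiquinone synthesis, was among them in all 4 (-1.07, -0.61, -1.23 and -0.94). Of 20 genes of protein import and folding, 2, 1, 2 and 1 fell, which is near the shares of all probesets. Among them Timm17a was lower in S+ cells of B10 (-0.82) and NOD (-1.37). Vdac3, a porin of the outer membrane, fell by -0.69 in B10 S+, -1.01 in NOD S+ and -1.06 in NOD S- cells.

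Genes that control or assemble the chain were counted in the same way, and the same shares of all probesets apply to the comparisons with PreS. Of 9 genes of mitochondrial DNA upkeep and transcription, Tfam and Tefm fell in NOD S+ cells (-0.76 and -1.07) and the others passed no test in the 4 comparisons with PreS. None of 10 regulators of mitochondrial gene expression passed in these 4 by limma (2, 3, 3 and 3 did at an unadjusted p under 0.05), and their median was -0.16, -0.30, 0.37 and 0.64 in B10 S+, B10 S-, NOD S+ and NOD S- cells. Of assembly factors, Coa3 (complex IV) fell by -1.08 and Uqcc2 (complex III) by -1.37 in NOD S+ cells, and Tmem186 (complex I) by -0.67 in B10 S+ cells. Between strains in PreS cells Timmdc1 (complex I) was higher in NOD by 1.37, as it was in S- cells by 1.03, and Atpaf2 (complex V) lower by -1.33. Myc, one of the 10 regulators, was also lower in NOD PreS cells (-1.01 ± 0.24, adjusted p = 0.014). None of 5 antioxidant enzymes passed in the comparisons with PreS by limma (1, 1, 0 and 2 were lower at an unadjusted p under 0.05).

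The respiratory chain was set beside 3 other sets of protein complexes to see where it differed. Of all probesets, 9.44% passed as lower in B10 S+, 8.66% in NOD S+ and 5.68% in NOD S- cells. In B10 S+ cells, genes of mitochondrial ribosomal proteins had a median difference of -0.35 with 11 of 74 lower and proteasome subunits -0.30 with 5 of 38 lower, while the chain was at -0.17 with 1 of 82 lower. In NOD S+ cells the medians were -0.75 (24 of 74 lower) and -0.92 (16 of 38 lower) against -0.44 for the chain, and in NOD S- cells -0.57 (15 of 74) and -0.52 (1 of 38) against -0.65. Cytosolic ribosomal proteins (43 genes) went the other way in B10, with medians of 0.40 in S+ and 0.36 in S- cells, and stood at -0.01 and -0.31 in NOD. At the PreS stage the chain and the cytosolic ribosome were the sets with a higher median in NOD (0.30 and 0.31), with the others at 0.03 and 0.05. G2/M cell cycle genes, by contrast, fell in 23 of 23 in B10 S+, 21 in B10 S-, 20 in NOD S+ and 21 in NOD S- cells, with medians of -3.32 to -1.61. No test of these sets against each other was made.

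**Figure D5:**
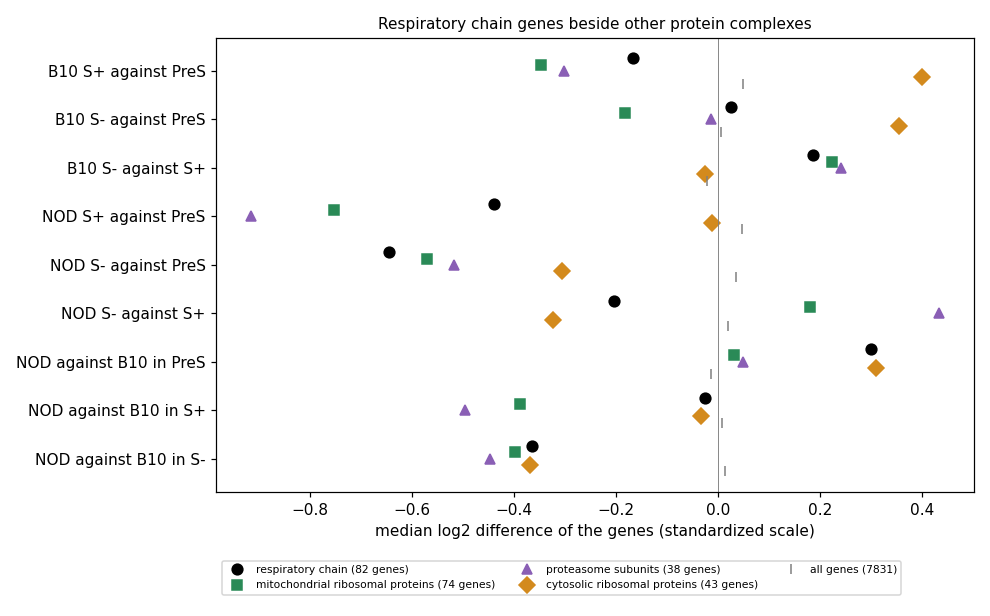
Median log2 difference on the standardized scale (x axis) of the respiratory chain, mitochondrial ribosomal, proteasome and cytosolic ribosomal genes and of all genes, for 9 comparisons (y axis). The chain lies at -0.44 and -0.65 in NOD S+ and S- cells against PreS, and at -0.17 and 0.03 in the same B10 comparisons. It lies at 0.30 in NOD against B10 PreS cells.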

How the data were processed

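RNA from sorted thymocytes was measured on 24 Affymetrix GeneChip 430A arrays after 2 rounds of in vitro amplification. The authors derived MAS5 signal intensities with every array's trimmed mean brought to 150, and deposited 22690 probesets. Here the 64 control probesets were dropped and the 33 zeros became 0.1. Each array's log2 values were then given a common mean and variance, following the methods. Present calls were not used here. A probeset was tested if 1 of the 8 conditions reached a signal of 32 on its 3 arrays (12838 of 22626).

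limma 3.58.1 (R 4.3.3) was fitted to each strain with the PreS groups merged, and to all 24 arrays for comparisons of strains. Benjamini-Hochberg adjustment covered every tested probeset, the threshold was 0.05, and differences are given ± SE. Comparisons with PreS share the PreS arrays. The number of arrays limits the precision. Named genes were all called members or, beyond 12, the 6 largest per side without overlap and with a group mean of at least 100, plus Sdh subunits, Cox4, Cox6a, Cox6b, Cox7a and Cox8 forms, Atp5b and the c subunit genes. Members and lists were chosen with earlier results of these data known. Scripts were tested on simulated data. Alternatives covered scaling, floor, filter, day, replicate block, RNA quality, array weights, the joint fit, further probesets, the methods' t-test and leaving out arrays.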

Additional observations from a re-analysis of the deposited data

Results flagged for a closer look

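Of 58 groups of 6 PreS arrays examined for members named in the text, 6 held an array far from the other 5 (the gap divided by the group's whole range, on the standardized log2 scale). Chance alone sets apart about 1 group in 20 where groups are independent. These groups shared the same PreS arrays, and members tended to go together, so the 6 cannot be set against that rate. In B10 PreS cells, TCR replicate 3 was highest for Cox4i1 (3999 against 2541 to 3046, gap 0.7), Ndufa4 (1748 against 937 to 1210, 0.645) and Ndufaf5 (148 against 106 to 115, 0.721), and TCR insHEL replicate 3 was lowest for Ndufb3 (720.0 against 917 to 1071, 0.671). In NOD PreS cells, TCR insHEL replicate 1 was highest for Ndufaf5 (229 against 132 to 153, 0.774) and lowest for Sdhd (107 against 343 to 558, 0.7), and its 3' to 5' ratio was 4.94 on the log2 scale.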

How the results depend on the processing

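The number of members called in NOD S+ against PreS (15) became 6 with no filter, 0 with hybridization day as a block and 30 with array weights. It was 29 with all 24 arrays in 1 fit and 23 with a further probeset for the 42 members that had one. An alternative chosen after seeing the data left out the 3 arrays of highest 3' to 5' ratio. It left 1 NOD S+ array, so no count is given for comparisons with that group. For NOD S- against PreS (5) the counts were 8 with a floor of 16, 1 with no filter, 10 with a filter at 64, 0 with the day block, 14 with the ratio as a covariate, 45 with array weights, 20 in 1 fit and 11 with further probesets. For B10 S+ against PreS (2) they were 5 with quantile normalization, 7 with a floor of 16, 5 with a filter at 64, 1 with the day block, 5 with the covariate, 1 in 1 fit and 5 with further probesets, and for B10 S- against PreS (1) 0 with the day block, 4 with array weights and 2 with further probesets. For NOD against B10 in S+ (2) the count was 1 with quantile normalization, no filter, the day block, the covariate and further probesets, and 27 with array weights. In PreS (1) it was 2 with array weights, and in S- (1) it was 2 with quantile normalization, a floor of 16, a filter at 64 and the covariate, 27 with array weights and 3 without the 3 arrays. Array weights also gave 19 for NOD S- against S+ and 5, 11 and 4 for the strain differences in S+ against PreS, S- against PreS and S- against S+ (0 each). The cause of these shifts was not tested. The shares of all probesets under these settings are not given here, so the counts do not show shifts particular to the members.

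Leaving out 1 replicate gave 2 to 5 members in B10 S+ against PreS, 1 to 2 in B10 S- against PreS, 1 to 25 in NOD S+ against PreS, 0 to 19 in NOD S- against PreS, 0 to 1 in NOD S- against S+, 1 to 2, 1 to 20 and 1 to 3 between strains in PreS, S+ and S-, and 0 to 3 for the strain difference in S+ against PreS. A further probeset turned the sign for Atp5c1 in NOD S+ (0.92), Cox8a in NOD S- (0.0352) and Sdha between strains in S+ (0.32). Ndufs5 between strains passed under all 35 alternatives at each stage. The members' median kept its sign under all alternatives except in B10 S- against PreS (6 of 23 turned) and NOD S- against S+ (1 of 24). With the replicate block, which pairs arrays by a shared number alone (mean correlation of same-numbered arrays 0.051, -0.31 to 0.63), the counts were 16 in NOD S+ and 5 in NOD S- against PreS, 2 and 1 in B10 S+ and S- against PreS, 1, 2 and 1 between strains, and 0 elsewhere. By the methods' t-test at an unadjusted p under 0.05, 29 members were lower in NOD S+ and 24 in NOD S- against PreS (16.2% and 12.8% of all probesets), and 11 and 4 passed after Benjamini-Hochberg adjustment. The bounds for Ndufs5 and the count with Ndufa4 in complex IV were chosen after seeing the data.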
